A study of Ovis aries with 6 samples.

Results

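The genes described here are the TRIM and F-box families of ubiquitin ligase genes in sheep longissimus muscle. They were chosen by symbol from the gene table: every TRIM gene with a numbered name and every gene named FBXO, FBXL or FBXW with a number, leaving out 7 ligases already well known in muscle (TRIM63, TRIM54, TRIM55, FBXO32, FBXO30, FBXO40 and FBXO21). This gave 105 of the 23144 genes listed, 49 TRIM genes and 56 F-box genes. Of the F-box genes, 31 were FBXO, 17 FBXL and 8 FBXW. The muscle came from females aged 1 year of a pair of breeds kept in the same environment: 3 Qianhua Mutton Merino (QHMM), a variety developed for meat and wool, and 3 Small Tail Han (STH), a traditional local sheep. No treatment of either breed is described, but the paper measured live weight after fasting, before slaughter. Each animal gave 1 library, and the question of the design was which transcripts differed in STH vs. QHMM.

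Ubiquitin is a small protein that is attached to other proteins, often to mark them for the proteasome, and a ubiquitin ligase is the part of the machinery that chooses the substrate. TRIM proteins are single-chain ligases. They carry a RING domain that recruits a ubiquitin-conjugating enzyme (E2), B-box and coiled-coil regions, and a variable end that binds the target. F-box proteins are exchangeable substrate receptors of the SCF complex: the F-box binds SKP1, SKP1 binds the scaffold CUL1, and CUL1 holds the RING protein RBX1 and its E2. FBXW receptors bind targets through WD40 repeats and FBXL receptors through leucine-rich repeats, while FBXO receptors carry other domains or none that is named. In skeletal muscle, ligases of both families are known for protein turnover during wasting, for membrane repair and for the control of mitochondria and metabolism.

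The 6 libraries held between 10982191 and 14334544 reads counted on genes. The TRIM genes together took 0.0504% to 0.0665% of the counts of a library and the F-box genes 0.0536% to 0.0844%. Spearman's rho across genes was 0.955 to 0.960 between libraries of a breed and 0.909 to 0.951 between breeds, and the second principal component set QHMM replicate 2 and STH replicate 3 apart from the remaining 4. The muscle markers ACTA1, CKM, DES and TTN were abundant in every library. The 8 tested slow fibre genes were all lower in STH in log2 fold change (median -1.35) and 4 of them were called, with summed normalized counts of 434268 to 473800 in QHMM and 167824 to 201090 in STH. Of 5 adipocyte genes, 4 were called lower, and their sum was 1504 to 5030 in QHMM and 674.6 to 1042 in STH. By edgeR, none of the 7 tested fast fibre genes, 9 immune genes, 4 fibroblast genes or 3 endothelial genes was called (1, 1, 1 and 0 of them had an unadjusted p below 0.05, and DESeq2 called 1, 1, 1 and 0). The log2 fold change was below 0 in 7, 6, 4 and 1 of them, with medians of -0.32, -0.52, -0.68 and 0.04. The part of these markers in the results for the TRIM and F-box genes was not tested. In bulk muscle, fewer cells of a type and less RNA per cell cannot be told apart.

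Counts were divided by library sizes that edgeR's TMM factors had adjusted and scaled to the median library, so that values of a gene can be compared between libraries. A gene was called when its false discovery rate (FDR) over the 12506 genes tested was below 0.05 and the breeds differed more than 1.5-fold, either way. Of the 105 TRIM and F-box genes, 69 had enough reads to be tested, 30 TRIM and 39 F-box. TRIM7 and TRIM13 were down-regulated in STH, no TRIM gene was up-regulated, and no F-box gene was called in either direction. Over all genes tested, 3.45% were called, 1.62% higher and 1.83% lower in STH. An unadjusted p below 0.05 was found for 12 of the 69 genes, 8 higher and 4 lower, or 17.4% against 19.2% of all genes tested. The breeds did not overlap in 18 of the 69 genes (26.1%), compared with 24.7% of all genes tested. The log2 fold change was above 0 in 39 genes (56.5%) and below 0 in 30, and it was above 0 in 51.8% of all genes tested. Its median was 0.10 over the TRIM genes and 0.12 over the F-box genes, and 0.02 over all genes tested. With 3 animals per breed, the smallest p that an exact permutation test of 1 gene can reach is 0.10.

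**Figure D1:**
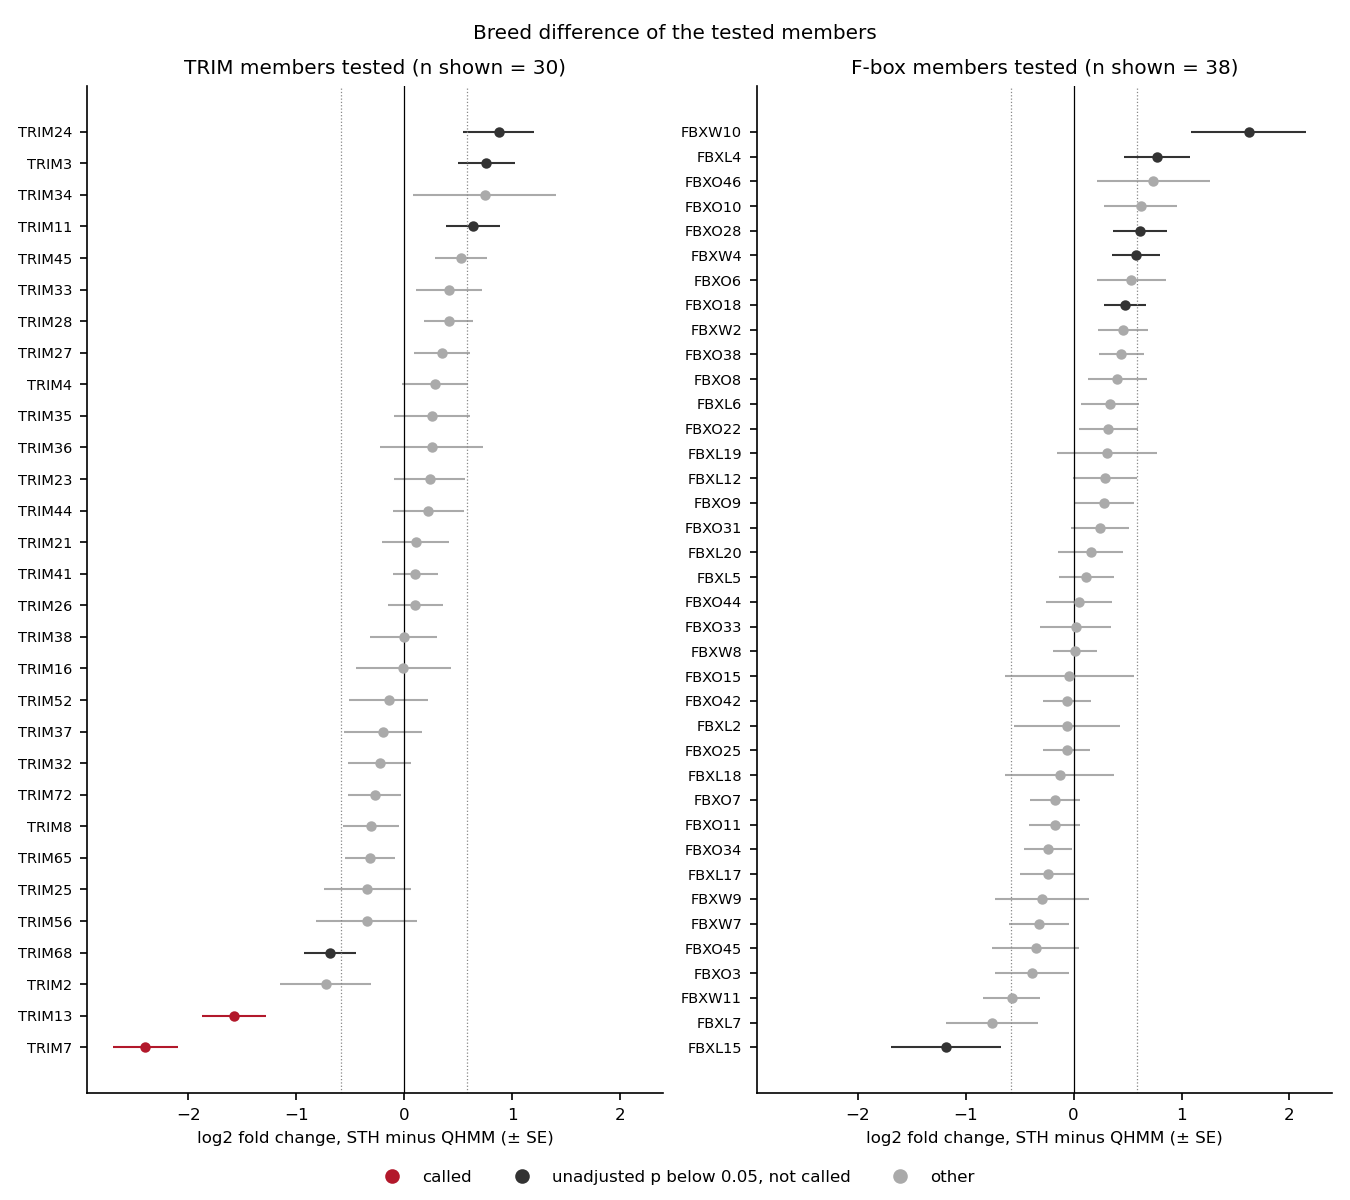
Log2 fold change in STH minus QHMM (x axis, point, with its SE as a bar) of the 30 TRIM genes (left) and the F-box genes (right) that were tested, all but 1 of the 39, with 3 animals per breed. Dotted lines mark the minimum difference of 1.5-fold, and red points, TRIM7 at -2.40 and TRIM13 at -1.58, are the genes that were called.

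TRIM7 showed the largest difference of the 69 genes. It encodes a ligase that ends in a PRY-SPRY domain and that was first described through its binding to glycogenin, the protein that primes glycogen synthesis. Its normalized counts were 1528, 1449 and 1444 in the 3 QHMM animals, in the order of their numbers, against 381.2, 163.8 and 291.5 in STH. The QHMM animals lay close together, and the highest STH animal was far below the lowest QHMM animal. The mean fell from 1474 ± 47.3 to 278.9 ± 109 normalized counts (SD, n = 3), a 5.27-fold lower level with a log2 fold change of -2.40 (SE 0.30) and an FDR of 0.0047 by edgeR. It was called in each of the 6 fits that left out 1 library, with log2 fold changes of -2.71 to -2.15. With both QHMM replicate 2 and STH replicate 3 left out, the log2 fold change was -2.45 and the FDR 0.0748, in a fit that called 11 genes in all.

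TRIM13 encodes a ligase held in the membrane of the endoplasmic reticulum, where it takes part in the removal of misfolded proteins. The QHMM animals had 175.6, 161.7 and 280.6 normalized counts, against 86.6, 56.0 and 63.3 in STH. All STH animals were below all QHMM animals, and QHMM replicate 3 was the highest of the 6. The mean of 206.0 ± 65.0 in QHMM and 68.6 ± 16.0 in STH (SD, n = 3) gave a 2.99-fold lower level in STH (log2 fold change -1.58, SE 0.30) and an FDR of 0.0221 by edgeR. The call was lost when QHMM replicate 3 (FDR 0.0769), STH replicate 2 (FDR 0.0621) or STH replicate 3 (FDR 0.0551) was left out, and it was not made from the RPKM values by limma-trend (FDR 0.0682). The log2 fold change was -1.80 to -1.21 over the 16 alternatives. TRIM59, the other TRIM gene here with a transmembrane segment, named after its values were seen, had too few reads to be tested.

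Gene order was taken from the protein-coding genes in the RefSeq gene table of a later sheep assembly (ARS-UI_Ramb_v3.0). Among these, TRIM7 is followed directly by TRIM41, and TRIM41 is separated from TRIM52 by 1 gene, RACK1. TRIM41, a RING protein with a PRY-SPRY end, had normalized counts of 383.6, 540.7 and 441.3 in QHMM and 501.9, 453.7 and 510.7 in STH. TRIM52, chosen here for its position after its values were seen, had 25.2, 29.5 and 42.0 in QHMM and 33.3, 31.3 and 22.6 in STH. The breeds overlapped in both neighbours. Their log2 fold changes were 0.10 (SE 0.21, FDR 0.836) and -0.14 (SE 0.37, FDR 0.876) by edgeR, against -2.40 for TRIM7, and whether the difference of TRIM7 from its neighbours exceeds their error was not tested.

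**Figure D2:**
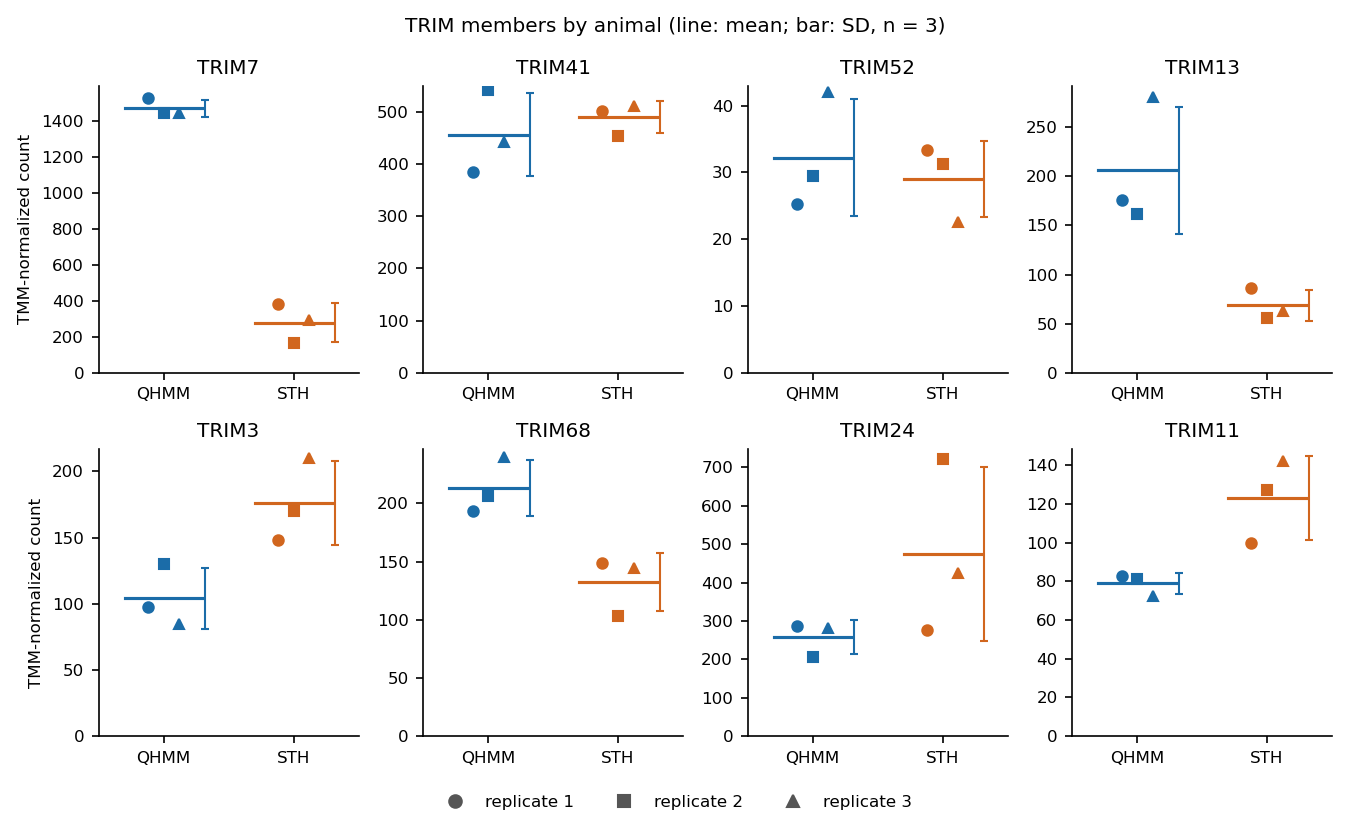
TMM-normalized counts (y axis) of TRIM7, its neighbours TRIM41 and TRIM52, TRIM13 and 4 further TRIM genes in each animal, by breed, with the mean as a line and the SD as a bar (n = 3). TRIM7 was 1444 to 1528 in QHMM and 163.8 to 381.2 in STH, while TRIM41 and TRIM52 overlapped between breeds.

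Of the 15 PRY-SPRY genes that were tested, the other 14 were not called. TRIM68, a coactivator of the androgen receptor, had normalized counts of 193.6, 206.6 and 239.6 in QHMM and 149.0, 103.5 and 144.6 in STH (log2 fold change -0.69, SE 0.24, FDR 0.152). TRIM11 had 82.8, 81.5 and 72.7 in QHMM and 99.9, 127.2 and 142.4 in STH (log2 fold change 0.64, SE 0.25, FDR 0.198). In both genes the breeds did not overlap and the unadjusted p was below 0.05, but neither passed the FDR threshold under any of the 16 alternatives. TRIM72, also called MG53, is a muscle protein that gathers vesicles at breaks in the sarcolemma. It had 1008, 1294 and 972.8 normalized counts in QHMM and 922.3, 657.4 and 1127 in STH, so the breeds overlapped (log2 fold change -0.27, SE 0.25, FDR 0.594). Its partners in repair, dysferlin (DYSF, 0.08, FDR 0.913) and caveolin-3 (CAV3, -0.21, FDR 0.815), were not called either. TRIM27, a nuclear regulator of transcription, had a log2 fold change of 0.35 (FDR 0.513).

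TRIM21 and TRIM25, SPRY ligases of innate immunity, had few reads. TRIM21, the cytosolic receptor for antibody-coated particles, had 34.2 to 50.2 normalized counts in QHMM and 38.4 to 49.6 in STH (log2 fold change 0.11, FDR 0.894). TRIM25, which activates the RNA sensor RIG-I, had 83.7, 74.4 and 155.6 in QHMM and 119.0, 85.1 and 41.8 in STH (log2 fold change -0.34, SE 0.40, FDR 0.695). The range within each breed of TRIM25 was wider than the distance between the means.

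The PHD-bromodomain TRIM genes encode nuclear proteins that bind chromatin, and 3 of the 4 were tested. TRIM28, the corepressor that KRAB zinc finger proteins recruit, had 1407, 1692 and 1305 normalized counts in QHMM and 1562, 2111 and 2184 in STH. TRIM24, a coregulator of nuclear receptors, had 286.4, 206.6 and 280.6 in QHMM and 275.5, 720.9 and 424.9 in STH. TRIM33, which acts on SMAD4 in TGF-beta signalling, had 106.3, 63.8 and 87.0 in QHMM and 129.0, 136.9 and 78.0 in STH. The 3 log2 fold changes were above 0 and the breeds overlapped in each gene. They were 0.41 (SE 0.23, FDR 0.362) for TRIM28, 0.87 (SE 0.33, FDR 0.176) for TRIM24 and 0.42 (SE 0.30, FDR 0.501) for TRIM33. TRIM24 rested on STH replicate 2, and without it the log2 fold change was 0.42.

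TRIM proteins with NHL repeats bind RNA or cargo through that propeller-like end. TRIM3 had 97.3, 129.9 and 85.0 normalized counts in QHMM and 148.2, 170.3 and 210.2 in STH, and the breeds did not overlap (log2 fold change 0.76, SE 0.26, FDR 0.144). TRIM2, a neuronal ligase for neurofilament light chain, had 448.4, 233.8 and 480.2 in QHMM and 384.6, 205.8 and 108.5 in STH (log2 fold change -0.73, SE 0.42, FDR 0.377). TRIM32, whose loss causes a limb-girdle muscular dystrophy, had 72.0, 87.4 and 62.5 in QHMM and 52.4, 56.0 and 81.4 in STH (log2 fold change -0.23, SE 0.29, FDR 0.725). Of these 3 genes, TRIM3 alone separated the breeds, and it was not called.

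The remaining TRIM genes described here have other ends, and 0 of them were called. TRIM45, with a filamin-type domain, had 746.5, 559.6 and 470.0 normalized counts in QHMM and 963.9, 686.5 and 907.4 in STH (log2 fold change 0.53, SE 0.24, FDR 0.266). TRIM8, a regulator of cytokine signalling, had a log2 fold change of -0.31 (FDR 0.567). The log2 fold changes of TRIM23, which carries an ARF domain, TRIM37, a MATH domain ligase of peroxisomes and centrosomes, and TRIM44, which lacks the RING, were 0.24, -0.20 and 0.22, with FDRs of 0.748, 0.819 and 0.765. None of these 5 genes separated the breeds.

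Among the F-box genes, 0 of 39 were called by edgeR, DESeq2 or limma-trend. By edgeR, 3.45% of all genes tested were called. An unadjusted p below 0.05 was found for 6 of the 39 (15.4%), 5 of them higher in STH, against 19.2% of all genes tested. The breeds did not overlap in 12 of the 39 genes (30.8%), 9 higher and 3 lower in STH, against 24.7% of all genes tested. For the FBXO, FBXL and FBXW groups the numbers were 6 of 20, 3 of 12 and 3 of 7. These counts describe the families and carry no test of their own.

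Of the FBXW receptors, FBXW10 had the largest log2 fold change (1.62, SE 0.53, FDR 0.124). It rested on few reads, with normalized counts of 11.7, 5.90 and 6.14 in QHMM and 20.8, 15.1 and 39.5 in STH. FBXW4 had 284.6, 376.6 and 359.4 in QHMM and 419.5, 507.6 and 593.2 in STH (log2 fold change 0.57, SE 0.22, FDR 0.188). In both genes every STH animal was above every QHMM animal. FBXW7, the receptor for phosphorylated cyclin E, MYC, JUN and NOTCH1, had 282.7, 205.4 and 442.4 in QHMM and 250.6, 236.0 and 258.8 in STH, and its breeds overlapped (log2 fold change -0.32, SE 0.28, FDR 0.581). FBXW11, one of the pair of beta-TrCP proteins that bind phosphorylated beta-catenin and NFKBIA, had 326.9, 442.7 and 524.3 in QHMM and 272.2, 371.8 and 223.7 in STH (log2 fold change -0.58, SE 0.26, FDR 0.263). Its paralog BTRC had a log2 fold change of -0.35 (FDR 0.428). FBXW8, which works with CUL7 and has IRS1 among its targets, had a mean of 590.1 ± 34.1 in QHMM and 594.1 ± 89.6 in STH (SD, n = 3), the closest means of the abundant F-box genes. Its log2 fold change of 0.01 (SE 0.20) carries no direction, since its sign turned in other scalings.

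The FBXL receptors include genes of mitochondria and iron. FBXL4, a mitochondrial outer membrane protein that restrains mitophagy by removing BNIP3 and BNIP3L, had 234.1, 486.4 and 572.4 normalized counts in QHMM and 721.7, 853.5 and 629.4 in STH. All STH animals were above all QHMM animals, by a small margin between QHMM replicate 3 and STH replicate 3 (log2 fold change 0.77, SE 0.31, FDR 0.203). Without QHMM replicate 1, its lowest animal, the log2 fold change was 0.45. FBXL5, an iron sensor that removes the iron-regulatory protein encoded by IREB2, overlapped between breeds (249.4 to 436.2 in QHMM, 301.7 to 419.2 in STH, FDR 0.851). FBXL15, a receptor in BMP signalling, was lower in each STH animal, at 12.6, 21.3 and 10.2 in QHMM and 5.83, 6.47 and 6.78 in STH (log2 fold change -1.19, SE 0.51, FDR 0.235). These last values are small, and the RPKM of FBXL15 was 2.14 ± 0.602 in QHMM and 1.03 ± 0.114 in STH. FBXL17, which checks the pairing of BTB domain proteins, had a log2 fold change of -0.24 (FDR 0.657), and FBXL2 and FBXL20, a pair of close paralogs, had -0.06 and 0.16 (FDR 0.962 and 0.828).

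Of the FBXO receptors, FBXO18, a DNA helicase also called FBH1, had 600.6, 661.1 and 546.8 normalized counts in QHMM and 792.5, 840.6 and 885.9 in STH. FBXO28 had 76.5, 61.4 and 80.9 in QHMM and 117.4, 118.5 and 100.6 in STH. The breeds did not overlap in either gene, and the spread within a breed was small beside the distance between means. With log2 fold changes of 0.48 (SE 0.20, FDR 0.212) and 0.62 (SE 0.25, FDR 0.207), neither passed the adjustment over all genes. FBXO31, a receptor for cyclin D1 after DNA damage, had 1231, 1842 and 1521 in QHMM and 1261, 1901 and 2292 in STH (log2 fold change 0.25, SE 0.27, FDR 0.668). FBXO9, which acts on proteins that stabilize mTOR, had 0.28 (FDR 0.634). FBXO25, the closest relative of the wasting ligase FBXO32, had 187.7 to 200.8 in QHMM and 166.0 to 210.2 in STH (log2 fold change -0.07, SE 0.22, FDR 0.906). FBXO7, which works with parkin in mitophagy, FBXO11 and FBXO22 had -0.17, -0.18 and 0.32 (FDR 0.737, 0.735 and 0.573). FBXO38 had 280.9, 230.2 and 292.9 in QHMM and 337.1, 397.6 and 357.1 in STH, without overlap (log2 fold change 0.44, SE 0.21, FDR 0.281). FBXO6, which binds the sugar chains of glycoproteins, had 0.54 (SE 0.32, FDR 0.399), and its neighbour and relative FBXO2 was below the filter.

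**Figure D3:**
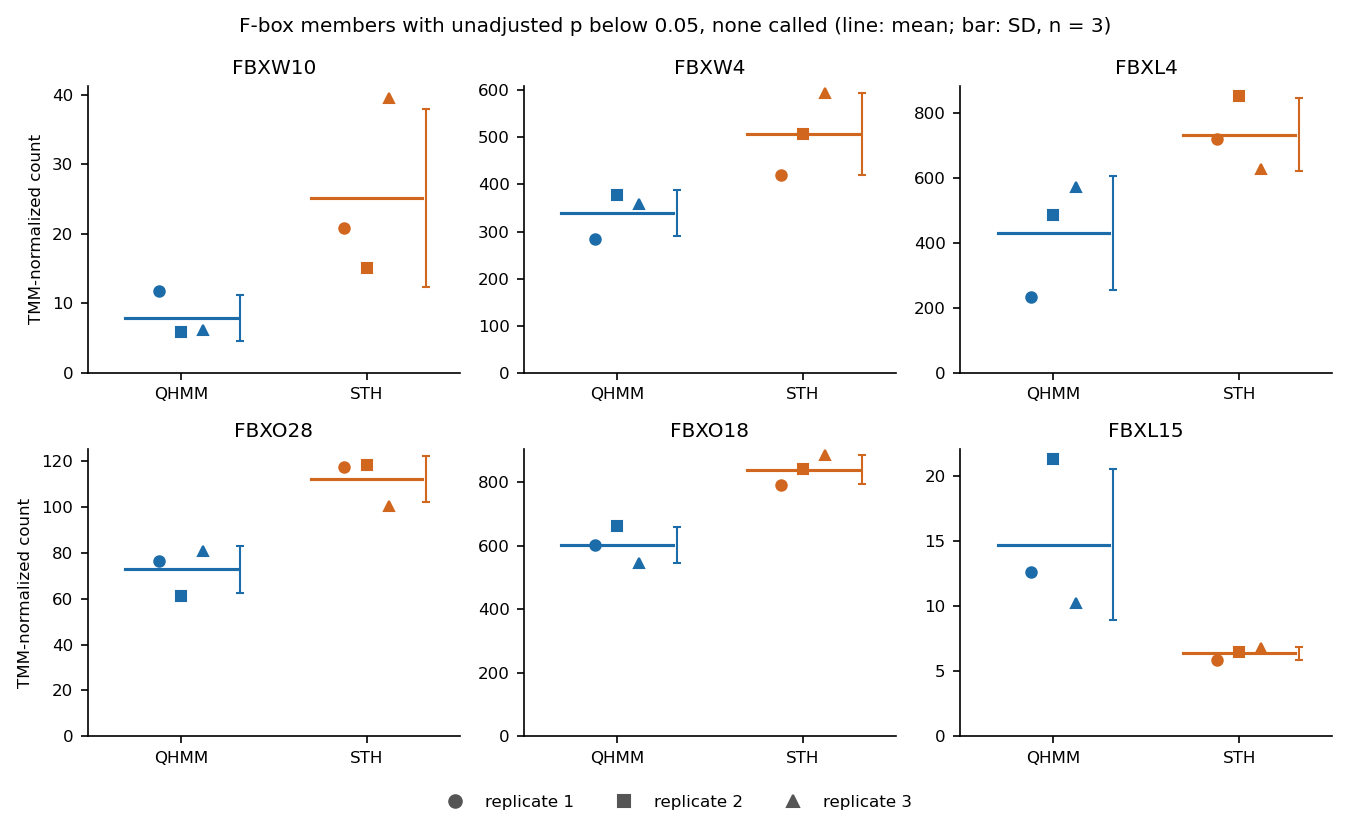
TMM-normalized counts (y axis) of the 6 F-box genes with an unadjusted p below 0.05 in each animal, by breed, with the mean as a line and the SD as a bar (n = 3). All 6 separate the breeds, 5 with STH above QHMM and FBXL15 with STH below, and 0 of them had an FDR below 0.05. They were picked by that p from these same values, so their separation is no further result. Of all genes tested, 24.7% separate the breeds.

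Levels of different genes were compared per length, as RPKM. With the 7 muscle ligases left out, FBXO31 was the most abundant F-box gene, at 85.3 ± 10.9 RPKM in QHMM and 108.3 ± 17.9 in STH (SD, n = 3). Among the chosen TRIM genes TRIM72 was the most abundant, at 70.1 ± 3.62 in QHMM and 62.6 ± 12.9 in STH, followed by TRIM28 at 40.7 ± 1.52 and 58.7 ± 7.76. TRIM7 was level with TRIM28 in QHMM, at 40.9 ± 4.77 RPKM, and below TRIM45, TRIM41, TRIM8, TRIM24 and TRIM27 in mean in STH, at 8.50 ± 4.13. The next TRIM genes, TRIM45, TRIM41 and TRIM8, had 15.3, 14.7 and 16.3 RPKM in QHMM, with ranges that overlapped one another. After FBXO31, the F-box genes FBXO9, FBXW8, FBXW4, FBXL4, FBXL17 and FBXW11 had means of 11.4 to 16.7 RPKM in QHMM. In STH their means were 10.8 to 22.3. Over the 6 libraries, neighbours in this order overlapped. Within a breed, FBXW8 and FBXW4 did not. FBXW8 was the higher in QHMM (14.8 to 18.9 against 11.3 to 14.5) and the lower in STH (17.2 to 19.1 against 19.6 to 21.9). A mean of at least 10 RPKM over the 6 libraries was reached by 6 TRIM and 9 F-box genes, and 22 TRIM and 23 F-box genes had a mean below 1.

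**Figure D4:**
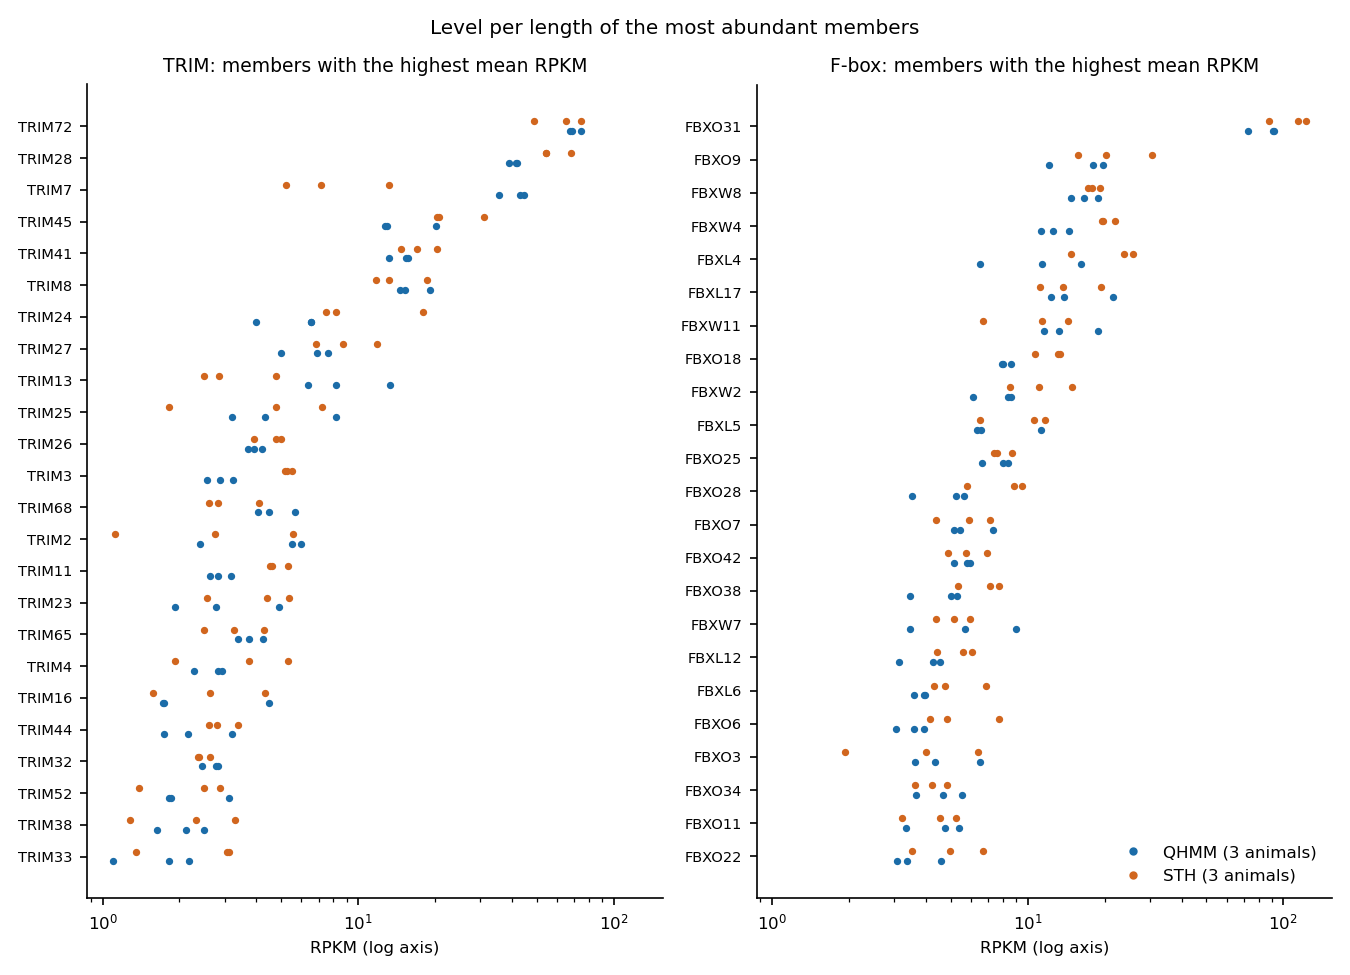
RPKM in each animal (x axis, log scale) of the most abundant TRIM genes (left) and F-box genes (right), 1 F-box gene not shown, ordered by the mean over 6 libraries, with QHMM in blue and STH in orange. TRIM7 stands out by its gap between breeds (means of 40.9 and 8.50 RPKM), and FBXO31 and TRIM72 have the highest means among the genes chosen here.

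The 36 TRIM and F-box genes that could not be tested had at most 48 reads in all libraries together, and 9 of them had none. These 9 were TRIM15, TRIM17, TRIM40, TRIM58, TRIM71, FBXL13, FBXL16, FBXL21 and FBXW12, named after their values were seen. A count of 0 in 77333825 reads allows up to 3 reads, a limit that covers counting error only. TRIM71 is best known from stem cells and embryos and TRIM58 from red cell precursors. The cell cycle gene FBXO5 (EMI1), an inhibitor of the anaphase-promoting complex, had at most 4.31 normalized counts in any animal.

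The genes that the ligases work with were taken from a list of 79 that held the SCF core, neddylation, the COP9 signalosome, E2 enzymes, ligases of these families under other names, and known substrates or partners. Of the 71 that were tested, 1 was called higher and 3 lower in STH, and 15 had an unadjusted p below 0.05. These were 5.63% called and 21.1% below that p, compared with 3.45% and 19.2% of all genes tested. The known substrates or partners held 1 call higher and 2 lower. The list was drawn up with earlier results of these data known, so this is not an independent comparison. The SCF core was not called. SKP1 had 376.4, 375.4 and 644.1 normalized counts in QHMM and 372.9, 518.3 and 322.0 in STH, and CUL1 had 631.2, 698.9 and 753.7 in QHMM and 741.7, 1517 and 937.9 in STH. The breeds overlapped in both genes, with log2 fold changes of -0.20 (FDR 0.745) and 0.62 (SE 0.27, FDR 0.249). RBX1 had -0.30 (FDR 0.462). Of 14 genes of neddylation, which switches cullins on, 9 of the COP9 signalosome, which switches them off, and 11 E2 enzymes, 0 were called by edgeR or DESeq2, and 1, 0 and 3 had an unadjusted p below 0.05. The E2 enzyme UBE2N had a log2 fold change of 0.06 (FDR 0.933) and the F-box gene SKP2 -0.52 (FDR 0.592).

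BNIP3, the mitophagy receptor that FBXL4 removes, was up-regulated in STH, with 2125, 2458 and 1684 normalized counts in QHMM and 3847, 6681 and 6468 in STH. It was 2.71-fold higher, with a log2 fold change of 1.44 (SE 0.28) and an FDR of 0.0248 by edgeR. FBXL4 stood at 0.77 in the same comparison and was not called. The 3 partners that were down-regulated were RNF207, SREBF1 and CRY2. RNF207, a RING and B-box protein of heart muscle, had 105.4, 92.1 and 38.9 in QHMM and 19.1, 3.23 and 5.65 in STH (log2 fold change -2.99, SE 0.59, FDR 0.0252). The RNF207 value was -4.13 without STH replicate 1 and -1.49 by limma-trend on log2(RPKM + 1), a scale that understates changes of low genes. SREBF1, a transcription factor of fat synthesis whose protein is a target of FBXW7, had 651.0, 883.1 and 686.1 in QHMM and 202.3, 123.9 and 316.4 in STH (log2 fold change -1.79, SE 0.32, FDR 0.0183). CRY2, a clock repressor, had 431.3, 377.8 and 585.7 in QHMM and 278.9, 173.5 and 202.3 in STH (log2 fold change -1.09, SE 0.26, FDR 0.0488), and CRY1 had 0.52 (FDR 0.324). The breeds did not overlap in any of these 4 called genes. Their calls rested on single libraries more often than that of TRIM7. BNIP3 and CRY2 were called in 1 of the 6 fits that left out a library, the one without STH replicate 1 (FDR 0.0124 and 0.0292), and had an FDR of 0.0515 to 0.0954 and 0.0755 to 0.155 in the other 5. RNF207 was lost without QHMM replicate 1 or 2 or STH replicate 2 or 3 (FDR 0.0588 to 0.0839), and SREBF1 without QHMM replicate 2 (FDR 0.0566). CRY2 was also lost with upper-quartile factors (FDR 0.0557) and by limma-trend on log2(RPKM + 1).

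Of the other partners chosen for naming, 0 were called by edgeR with the filter on all 6 libraries. GYG1, which encodes the glycogenin that TRIM7 binds, had 2824, 3234 and 4080 normalized counts in QHMM and 1588, 1014 and 2498 in STH. The STH animals were all below the QHMM animals (log2 fold change -0.99, SE 0.32, FDR 0.124 by edgeR), and DESeq2 called it. GYG1 was also called by edgeR without STH replicate 3 (FDR 0.0461). IRS1, the insulin receptor substrate that FBXW8 and FBXO40 can remove, had 797.8, 989.3 and 908.3 in QHMM and 602.7, 261.9 and 392.1 in STH (log2 fold change -1.10, SE 0.29, FDR 0.0667), and DESeq2 called it too. IRS1 was also called by edgeR without the filter (FDR 0.0234) or without STH replicate 1 (FDR 0.0189). IREB2, the target of FBXL5, had 0.05 (FDR 0.949). MYC and CCND1 had larger log2 fold changes than these and are named after their values were seen. MYC, a target of FBXW7, had 507.9, 165.3 and 42.0 in QHMM and 1215, 1515 and 1109.6 in STH (log2 fold change 2.42, SE 0.64, FDR 0.0667). It was called by limma-trend on log2(RPKM + 1) (FDR 0.0317) and log2(RPKM + 0.1) (FDR 0.0448), and by edgeR without the filter (FDR 0.00681), with the replicate block (FDR 0.0211) or without QHMM replicate 1 (FDR 0.0203). CCND1, which encodes the cyclin D1 that FBXO31 binds, had 54.0, 37.8 and 27.6 in QHMM and 17.5, 6.47 and 9.04 in STH (log2 fold change -1.82, SE 0.47, FDR 0.0642). DESeq2 called it (FDR 0.0245), as did edgeR without the filter (FDR 0.0291), with the replicate block (FDR 0.0483) or without STH replicate 1 (FDR 0.0378).

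**Figure D5:**
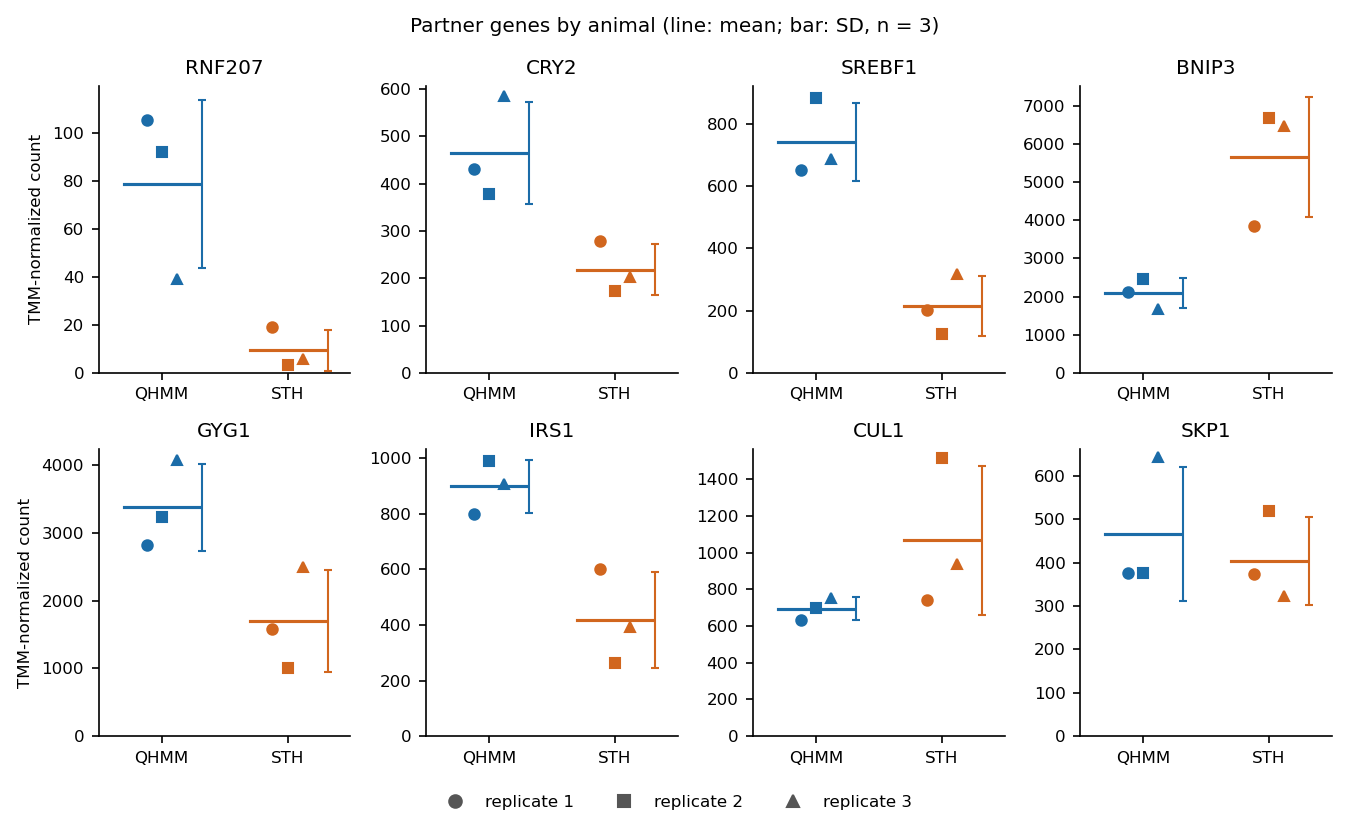
TMM-normalized counts (y axis) of 8 genes that work with TRIM or F-box ligases in each animal, by breed, with the mean as a line and the SD as a bar (n = 3). RNF207, CRY2 and SREBF1 were called lower and BNIP3 higher in STH. GYG1 and IRS1 separate the breeds without a call by edgeR with the filter on all 6 libraries, and CUL1 and SKP1 overlap.

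Beside the 105 genes, the 7 muscle ligases that were left out included larger differences in STH vs. QHMM. TRIM63 (MuRF1), a ligase of the thick filament, had 2720 to 3536 normalized counts in QHMM and 16892 to 61507 in STH (log2 fold change 3.52, SE 0.44, FDR 0.0049). FBXO32 (atrogin-1), the SCF receptor of muscle wasting, had 534.9, 964.5 and 689.1 in QHMM and 2080.2, 10209.5 and 1723 in STH (log2 fold change 2.68, SE 0.61, FDR 0.0433). Both were called higher. FBXO32 was lost without QHMM replicate 1, 2 or 3 (FDR 0.132, 0.0924 and 0.127), and its log2 fold change was 1.37 without STH replicate 2. Limma-trend on log2(RPKM + 1) did not call it. TRIM54 (log2 fold change 1.26, FDR 0.0726), TRIM55 (0.37, FDR 0.657), FBXO30 (2.29, FDR 0.0848), FBXO40 (-0.95, FDR 0.113) and FBXO21 (-0.11, FDR 0.817) were not called by edgeR. TRIM54 was called by DESeq2 (FDR 0.0053), by limma-trend on log2(RPKM + 1) (FDR 0.0323) and log2(RPKM + 0.1) (FDR 0.0359), and by edgeR without the filter (FDR 0.0271), with the replicate block (FDR 0.0438) or without STH replicate 1 (FDR 0.0214). FBXO40 was called by DESeq2 (FDR 0.0354), and FBXO30 by edgeR without the filter (FDR 0.013) or without STH replicate 1 (FDR 0.0289). The log2 fold change of FBXO30 was 0.72 without STH replicate 2. The call of TRIM7 was in the direction opposite to those of TRIM63 and FBXO32.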

How the data were processed

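Longissimus muscle of 3 QHMM and 3 STH sheep was sequenced on an Ion Proton after poly(A) selection. The authors mapped filtered reads to the sheep genome (Oar 3.1 in the submitters' processing notes) and deposited counts of uniquely mapped reads per gene, without normalization, and RPKM values, which scale the counts by gene length and library total. Reads shared by near-identical gene copies are therefore missing, and the aligner, the counter, the annotation release and the use of strand are not given in the sources used here. In the RPKM table, 25 names that did not match the count table were left out.

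The counts were tested with edgeR 4.0.16 in R 4.3.3 (TMM, filterByExpr, quasi-likelihood F test, breed as the only term), with Benjamini-Hochberg adjustment over 12506 genes and the study's thresholds. EBSeq, the study's program, was not used here. Alternatives used DESeq2 1.42.0 and, on log2(RPKM + 1), limma 3.58.1. The test was tested on simulated data. Gene order came from the protein-coding genes of a RefSeq gene table, in which 99 of the 105 symbols matched.

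The genes, lists and rules were chosen with earlier results of these data known. Named were called genes, those with an unadjusted p below 0.05, the 8 most abundant of each family, those with a fixed textbook role, the called and 13 fixed partners, and the 7 ligases left out. Others are said to be named after their values were seen. The values of 1 gene that this rule names are not reported here. Each animal gave 1 library, and p-values set the breed difference against the spread between these animals.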

Additional observations from a re-analysis of the deposited data

How the results depend on the processing

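The calls were recomputed under 16 alternatives. No F-box gene was called in any of them and no TRIM gene was called higher. TRIM7 was called in 15 and TRIM13 in 9. The alternative without a minimum fold change reused the main edgeR fit and gave the same 432 calls. It could not lose a call and adds nothing to these numbers as a check. The count of TRIM genes called lower was 1 in each of the 3 limma-trend fits on RPKM, 1 to 2 when 1 library was left out, and 0 with both QHMM replicate 2 and STH replicate 3 left out. Partner genes called higher numbered 2 without the filter, with the replicate block and with limma-trend on log2(RPKM + 1) and log2(RPKM + 0.1), 0 to 2 when 1 library was left out and 0 with both left out. Partners called lower numbered 6 with DESeq2, 5 without the filter, 0 with limma-trend without a filter, 0 to 5 when 1 library was left out and 0 with both left out. The fits that left out libraries also had fewer animals. The causes of these changes were not tested. Over all genes the calls went from 432 to 956 with DESeq2, 806 without the filter, 78 with unfiltered limma-trend, 131 to 535 when 1 library was left out and 11 with both left out. The log2(RPKM + 0.1) scale moved the median of all genes by 0.11, and by limma-trend on log2(RPKM + 1) 212 genes were higher and 134 lower, against 203 and 229.

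The deviations of same-numbered animals from their breed means had r = 0.24, -0.056 and -0.15 over genes. The highest r between a QHMM and an STH animal was 0.32, for QHMM replicate 2 and STH replicate 3, whose numbers differ. The numbers were not taken as pairs. The replicate block gave 457 calls with the same 2 TRIM genes, and CRY2 lost its call (FDR 0.0509).

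Some genes near 0 turned sign, and 0 of them were called. FBXW8 was at -0.0046 with DESeq2, -0.0086 with RLE factors, -0.017 with upper-quartile factors, -0.0034 without the filter, -0.12 with both libraries left out and -0.10 to 0.097 with 1 left out. By limma-trend, FBXO25 was at 0.038 and 0.043 and FBXO21 at 0.0039 and 0.0037 with pseudocounts of 1 and 0.1, and at 0.038 and 0.0039 without a filter, where FBXL2 was at 0.015. With both libraries left out, TRIM44 was at -0.013 and UBE2N at -0.15. With 1 library left out, log2 fold changes ranged from -0.028 to 0.25 for TRIM41, -0.074 to 0.37 for FBXL5, -0.014 to 0.25 for TRIM21, -0.18 to 0.12 for FBXL2, -0.071 to 0.36 for FBXL20, -0.28 to 0.23 for IREB2, -0.74 to 0.060 for TRIM25, -0.59 to 0.062 for TRIM37, -0.54 to 0.026 for FBXW7, -0.44 to 0.11 for SKP1, -0.16 to 0.32 for DYSF, -0.83 to 0.11 for CAV3, -0.32 to 0.096 for TRIM52 and -0.11 to 0.22 for UBE2N. Depth limits the 36 untested genes, and 3 animals per breed limit the rest.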

Other observations

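Several TRIM genes are induced by interferon, so a list of 27 interferon-response genes was examined beside them. Of the 22 that were tested, 0 were called by edgeR or DESeq2 and 2 had an unadjusted p below 0.05, both lower in STH. This was 9.09% of those tested, against 19.2% of all genes tested, of which 3.45% were called. Their median log2 fold change was -0.17, and the summed normalized counts of the list ran from 3487 to 4426 in QHMM and from 2270.1 to 4540 in STH, with the breeds overlapping. STH replicate 3 was the lowest.

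Among the 36 genes with too few reads for the test, 2 were higher in every STH animal than in every QHMM animal. TRIM10, with 6 reads in all, had raw counts of 1, 1 and 3 in QHMM and 1, 0 and 0 in STH. It was lower in every STH animal by normalized counts only. In raw counts, STH replicate 1 tied with QHMM replicates 1 and 2. The share over all untested genes was not computed, and these genes are named after their values were seen. TRIM66, a PHD-bromodomain gene, had raw counts of 2, 5 and 3 in QHMM and 19, 11 and 6 in STH, and the edgeR fit without a filter put it at a log2 fold change of 1.68 with an SE of 0.72 and an FDR of 0.239. FBXO48 had 2, 2 and 3 in QHMM and 6, 8 and 5 in STH (log2 fold change 1.36, SE 0.87, FDR 0.487). Neither was called.

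The spread between animals was close to that of other genes. The median coefficient of variation of the normalized counts within a breed was 23.1% in QHMM and 24% in STH over the 30 TRIM genes, 22.1% and 19.5% over the 39 F-box genes, and 20.7% and 23.9% over all genes tested.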
